A study of Mus musculus with 24 samples.

Results

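The lysosome genes described here are 36 mouse genes taken as a fixed list: proteases, glycosidases, lipid hydrolases and their activators, membrane proteins, subunits of the proton pump, and the transcription factor genes Tfeb and Tfe3. The rule uses no measured value, although the list was drawn up with earlier results of these data known. All 36 were found among the 43629 gene identifiers of the count table, and 33 had enough counts to be tested; Tfeb, Ctsh and Lgmn did not. The values come from RNA-seq of mouse leukaemia cells with Cas9 and the MLL-AF9 fusion, in 24 libraries. A non-targeting guide (NT) and a DOT1L knockout each had 3 libraries, and the names of the count columns give a single guide for each. Knockouts of MLLT10, MLLT1 and MLLT6 each had 2 guides with 3 libraries a guide. Every group, the NT control included, was transduced with a lentiviral guide at a multiplicity of 0.3, placed in 2 µg/ml puromycin for 72 h from 48 h onwards, and collected on day 9. The labels give neither the cut sites nor whether single clones were grown, and they do not say that replicates were separate cultures. The p-values therefore measure only how far these samples spread, and that spread may be technical.

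Lysosomes are acidic compartments in which hydrolases break down proteins, glycans and lipids that arrive by endocytosis, phagocytosis and autophagy. The V-ATPase proton pump keeps them acidic, most soluble hydrolases are delivered through the mannose 6-phosphate receptors, and TFEB and TFE3 are basic helix-loop-helix factors known to activate many of their genes. In myeloid cells, the primary granules of neutrophils share enzymes and membrane proteins with lysosomes. DOT1L is a histone methyltransferase on which MLL-AF9 leukaemia cells depend, and the products of MLLT10, MLLT1 and MLLT6 (AF10, ENL and AF17) are among the proteins that associate with it.

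Library totals ran from 2403044 to 7415397 counts. The targeted genes were checked first. Dot1l lay at 69.7 to 75.1 CPM (the count scaled to a library of 1000000, with TMM factors) in the NT libraries and at 41.6 to 49.1 CPM in its knockout, Mllt10 at 14.7 to 19.1 against 7.98 to 12.1 CPM, and Mllt6 at 30.1 to 42.2 against 14.9 to 23.3 CPM. The ranges of these genes did not overlap, but by edgeR's test only Dot1l was called lower (adjusted p = 0.00026). Mllt10 and Mllt6 were not called (adjusted p = 0.14 and 0.60). Mllt1 was not lower in the libraries labelled MLLT1 knockout, at 34.95 to 69.3 CPM against 21.8 to 41.2 CPM. Its transcript level therefore does not check those labels. All 14 listed neutrophil genes were called higher in the DOT1L knockout, with summed levels of 98130 to 111700 CPM against 2129 to 2681 CPM in NT. There, 4 of 7 tested monocyte and macrophage markers were called higher and 2 lower (summed 2920 to 4147 against 244 to 357 CPM), while the macrophage genes Mrc1, C1qa, C1qb and C1qc had no count in either group. Of 6 leukaemia and progenitor markers, 4 were called lower (summed 779 to 914 against 1395 to 1589 CPM). B cell markers had no count in any group, and of the fibroblast and endothelial markers Col1a1 rose and Pecam1 fell. The 5 erythroid markers summed to 67.6 to 96.3 CPM in NT, 2.23 to 4.28 CPM in the DOT1L knockout, 30.1 to 70.3 CPM in the MLLT10 knockout, 11.15 to 23.2 CPM in the MLLT1 knockout and 70.6 to 126 CPM in the MLLT6 knockout; the 1 abundant enough to test was called lower in the DOT1L and MLLT1 knockouts. In bulk samples, fewer cells of a type and less RNA per cell cannot be told apart, and the part of these marker changes in the lysosome results below was not tested.

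In the NT cells the 36 genes together took 4159 to 5022 CPM. Levels were compared per kilobase of exon, counting all exons annotated for a gene over all its transcripts. Such a length can exceed that of the transcript expressed, so the order depends on the annotation. On this scale the lysosomal aspartic protease gene Ctsd had the highest NT level, 240 CPM per kb. Next came the membrane glycoprotein gene Lamp1 at 186, the carboxypeptidase gene Ctsz at 120 and Cd63 at 118 CPM per kb. Cd63 encodes a tetraspanin of late endosomes and granules. Ctsz and Cd63 differed by less than the spread of their libraries. At the other end stood the glycosidase gene Manba at 1.48, Tfe3 at 0.780, Tfeb at 0.269 and the calcium channel gene Mcoln1 at 0.140 CPM per kb. Of the cysteine proteases, Ctsb reached 47.9 and Ctsc 23.3 CPM per kb, against 7.52 for Ctss and 5.48 for Ctsl. Ctsh had 10 counts over all 24 libraries and none in NT or DOT1L knockout, and Lgmn, which encodes the asparaginyl endopeptidase legumain, had 18 counts and none in NT. With no count, 3 counts of a group's total is the limit, 0.377 CPM in NT and 0.235 CPM in the DOT1L knockout, for counting error only.

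Most of the members were steady between libraries of a group: over the 33 tested genes, the highest of 3 libraries was typically 1.29 times the lowest. Ctsb was the steadiest, with a typical ratio of 1.11, and Ctss and Manba were the only genes above 2. Manba ran from 5.77 CPM in 1 NT library to 57.7 CPM in MLLT10 guide 1 replicate 3, and replicate 3 was its highest library in every group. Psap, which encodes the precursor of the saposin activators, stood at 104, 265 and 295 CPM in NT, with replicate 1 far below the other NT libraries, as it also was for Ctss (2.47 against 13.8 and 14.4 CPM). For Ctss, replicate 1 was the lowest library in every group, for example 3.34 against 8.18 and 5.35 CPM in the DOT1L knockout. The main fit has no term for replicate number, and the cause of these shared shifts was not tested.

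RefSeq promoter windows of build GRCm38.p6, from 250 bases before to 50 after a RefSeq start of a gene, were found for 32 of the 36 members. Asah1, Atp6v1h, Ctsb and Ctsh had no entry. The windows were searched for CACGTG, the E-box core that TFEB and TFE3 are known to bind, which reads the same on both strands. It occurred in 11 of 32 member genes (34.4%), against 2187 of all 27025 genes with a window (8.09%). The longer TCACGTGA, which contains it, occurred in 6 of 32 (18.8%) against 1.12%. The stretches shown first are those of the 4 genes called lower in the DOT1L knockout that hold the core, and the last 3 are of genes not called, for comparison. Each is written 5′ to 3′ on the gene's strand, upstream of the start that its window uses, with CACGTG in capitals. That start lies inside the gene span annotated by GENCODE for every gene shown but Lamp1, where it is the first base. For Ctsl, Ctsd and Atp6v1a the stretch itself lies within the gene and not before it. The stretches of Glb1, Gaa, Gla and Lamp1 lie before the gene.
Glb1: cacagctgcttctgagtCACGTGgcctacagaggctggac
Gaa: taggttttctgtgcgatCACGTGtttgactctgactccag
Gla: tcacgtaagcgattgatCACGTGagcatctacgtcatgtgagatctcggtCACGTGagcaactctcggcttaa
Ctsl: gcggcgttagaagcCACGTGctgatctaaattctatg
Ctsd: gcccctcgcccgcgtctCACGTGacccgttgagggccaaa
Lamp1: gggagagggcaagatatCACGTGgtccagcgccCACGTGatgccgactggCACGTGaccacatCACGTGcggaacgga
Atp6v1a: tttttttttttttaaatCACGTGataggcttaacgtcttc
These lie at chr9:114401013-114401052, plus strand (Glb1), chr11:119267806-119267845, plus strand (Gaa), chrX:134601177-134601249, minus strand (Gla), chr13:64370734-64370770, minus strand (Ctsl), chr7:142387903-142387942, minus strand (Ctsd), chr8:13159083-13159160, plus strand (Lamp1) and chr16:44139368-44139407, minus strand (Atp6v1a). The core begins at position -48 from the start in Glb1, -140 in Gaa, -227 and -194 in Gla, -236 in Ctsl, -245 and -98 in Ctsd (the stretch shown holds the second) and -131 in Atp6v1a. Lamp1 holds 4 copies, from -61 to -15. A match describes these letters and not a bound site.

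In the DOT1L knockout, lysosome genes changed in both directions. With a single guide in this group and in NT, an effect of the guide cannot be told apart from loss of DOT1L. Of the 33 tested, 5 were called higher (Neu1, Tfe3, Atp6v0a1, Lipa and Cd63) and 6 lower (Glb1, Ppt1, Ctsl, Ctsc, Gla and Gaa), by edgeR's quasi-likelihood test at an adjusted p under 0.05. Over all 10578 genes tested, 11.1% were called higher and 10.6% lower. As a share, 33.3% of the members were called against 21.7% of all genes. The members' log2 fold changes ran from -1.29 to 1.29, with a median of 0.14 against 0.01 over all genes, and 20 were above 0 and 13 below. The whole list took 5169 to 5410 CPM, above the NT range. As a percentage of raw counts the members stood at 0.450 to 0.466% against 0.415 to 0.521% in NT, which overlap, so the scaling of the libraries decides that direction. With total-count scaling the calls were 3 higher and 7 lower, Hexa being the added gene. The 5 called higher became 3 without NT replicate 2, NT replicate 3 or DOT1L knockout replicate 2, while the 6 called lower stayed between 5 and 7. Groups of libraries that do not overlap are described below for single genes. Members not called could also be apart: Ctsd, Grn, Lamp1, Lamp2, Mcoln1 and Atp6v1h lay wholly above NT and Atp6ap1 wholly below. The share of all genes without overlap is not given here, so a lack of overlap adds no support to a call. The plot of fold changes by role shows the split.

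**Figure D1:**
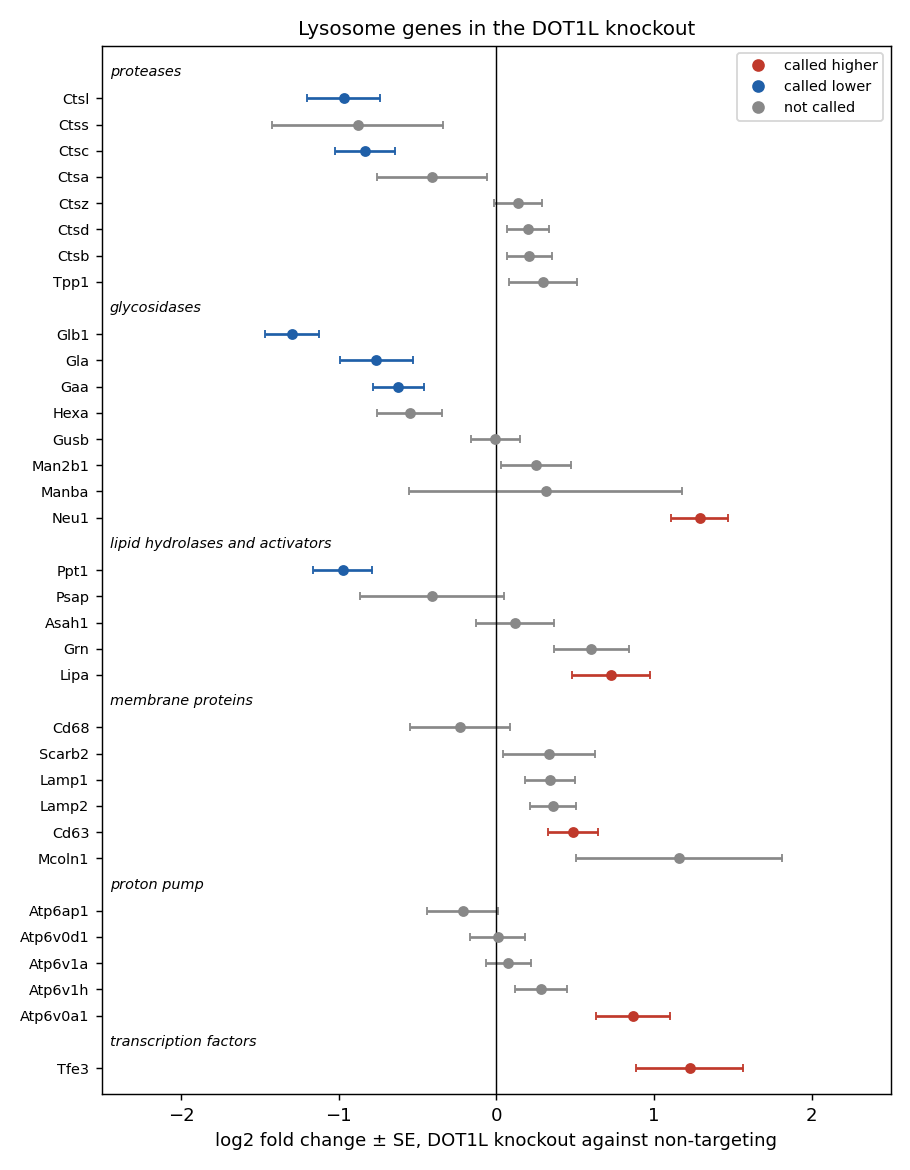
Log2 fold change of each of the 33 tested lysosome genes in the DOT1L knockout against NT (x axis; bars are the SE of the edgeR fit, 3 libraries against 3), grouped by role on the y axis. Red genes were called higher (5), blue genes lower (6) and grey genes were not called (22); glycosidases reach both ends, from Glb1 at -1.29 to Neu1 at 1.29.

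Among the 8 glycosidases, 3 fell and 1 rose, against 10.6% of all genes called lower and 11.1% higher. Glb1 encodes acid β-galactosidase and lies on chr9:114401076-114474898. Its level was 81.2, 105 and 89.8 CPM in the NT libraries and 33.1, 37.7 and 41.5 CPM in the DOT1L knockout. Every knockout library was below every NT library, with a fall of 1.29 ± 0.17 (SE) on the log2 scale (adjusted p = 3.8e-06). Neu1 (chr17:34931253-34935953), the gene for the lysosomal sialidase that removes terminal sialic acids, moved the opposite way. It stood at 87.8, 118 and 129 CPM in NT and at 233, 314 and 270 CPM in the knockout. The groups did not overlap, and the level was 2.44-fold higher (log2 fold change 1.29 ± 0.18, adjusted p = 6.6e-06). The products of Glb1 and Neu1 are known to form a complex with protective protein, the product of Ctsa, which was measured at 16.9 ± 7.18 CPM in NT and 13.04 ± 4.75 CPM in the knockout (SD, n = 3; log2 fold change -0.41, adjusted p = 0.46).

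Gaa (chr11:119267887-119285454) encodes the acid α-glucosidase that degrades glycogen. It stood at 177, 241 and 199 CPM in NT and at 130, 139 and 132 CPM in the knockout, a fall of 0.62 ± 0.16 on the log2 scale (adjusted p = 0.0064). Gla (chrX:134588149-134601125), which encodes α-galactosidase A, had 25.97, 30.7 and 31.9 CPM in NT and 18.2, 18.5 and 15.9 CPM in the knockout (log2 fold change -0.76 ± 0.23, adjusted p = 0.018). Both genes had every knockout library below every NT library, but Gla was no longer called without DOT1L knockout replicate 3 (adjusted p = 0.087), NT replicate 2 (0.052) or NT replicate 3 (0.063). Hexa, the gene for the α subunit of β-hexosaminidase, was not called, at 166 ± 41.0 against 114 ± 7.78 CPM (adjusted p = 0.060). The glucuronidase gene Gusb stood at 140 ± 21.9 and 140 ± 17.95 CPM, and Man2b1 and Manba were not called.

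Of the 8 tested proteases, 2 fell and none rose, where 10.6% of all genes were called lower and 11.1% higher. Ctsc (chr7:88278085-88310888) encodes the dipeptidyl peptidase known to activate the serine proteases of neutrophil granules. Its NT libraries had 131, 123 and 152 CPM and its knockout libraries 70.6, 70.0 and 86.6 CPM. The ranges did not overlap (log2 fold change -0.83 ± 0.19, adjusted p = 0.0020). In the same libraries the serine protease genes Elane and Prtn3, whose products Ctsc processes, rose by 1.09 and 1.13 on the log2 scale. Ctsl (chr13:64359337-64370890), the gene for the cysteine endopeptidase cathepsin L, stood at 35.5, 36.3 and 34.99 CPM in NT and at 19.3, 13.5 and 21.2 CPM in the knockout, a fall (log2 fold change -0.97 ± 0.23, adjusted p = 0.0028). The more abundant Ctsd, Ctsb and Ctsz were not called, with log2 fold changes of 0.20, 0.21 and 0.14. Neither were Tpp1, Ctss and Ctsa.

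The lipid group split evenly. Ppt1 (chr4:122836242-122859175) encodes the thioesterase that strips palmitate from proteins. It had 74.2, 129 and 125 CPM in NT and 59.8, 54.4 and 53.1 CPM in the knockout, a fall of 0.97 ± 0.19 on the log2 scale (adjusted p = 0.00040). NT replicate 1 lay well below the other NT libraries but still above the knockout. Lipa (chr19:34492318-34527474), the gene for lysosomal acid lipase, was higher at 18.95, 27.02 and 26.6 CPM against 10.7, 16.3 and 16.7 CPM (log2 fold change 0.73 ± 0.25, adjusted p = 0.035). Its groups did not overlap, but the call was lost in 7 of 13 alternative settings. Grn, which encodes progranulin, had 164, 199 and 169 CPM in NT and 242, 270 and 296 CPM in the knockout and was not called (adjusted p = 0.072). Psap and Asah1 were not called.

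The membrane protein genes were mostly above NT, but only 1 of 6 was called, where 21.7% of all genes were called in either direction. Cd63 (chr10:128900989-128912822), outside the 10 largest changes and named because it completes the 5 genes called higher, had 493, 428 and 384 CPM in NT and 683, 604 and 540 CPM in the knockout. That was 1.40-fold higher, with groups that did not overlap (log2 fold change 0.49 ± 0.16, adjusted p = 0.030), and it was lost in 6 of 13 settings. Lamp1 and Lamp2, the genes for the abundant glycoproteins that line the lysosomal membrane, had log2 fold changes of 0.34 ± 0.16 and 0.36 ± 0.15 and were not called (adjusted p = 0.14 and 0.083). Cd68, Scarb2 and Mcoln1 were not called either. Cd68, a scavenger-receptor-like glycoprotein often used to mark macrophages, stood at 13.6 ± 4.18 and 11.7 ± 1.38 CPM.

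The transcription factor gene Tfe3 (chrX:7762560-7775202) was called higher at a low level. It had 5.77, 8.13 and 7.78 CPM in NT and 18.95, 13.9 and 18.2 CPM in the knockout, 2.34-fold higher (log2 fold change 1.23 ± 0.34, adjusted p = 0.0095). The call held in all 13 alternative settings. Tfeb (chr17:47737030-47792419) was too rare to test, with 136 counts over all libraries. Its 3 libraries had 0.824, 2.19 and 1.56 CPM in NT and 1.49, 3.91 and 2.67 CPM in the knockout, which overlap. With no filter on low counts its log2 fold change was 0.77 ± 0.78 (adjusted p = 0.67).

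None of the 5 genes called higher held CACGTG in its window. The 6 called lower divided into 4 with it (Glb1, Gaa, Gla and Ctsl, shown above) and 2 without (Ppt1 and Ctsc). The other 6 tested members that hold it, among them Ctsd, Lamp1 and Atp6v1a, were not called. Over all tested genes with a window, 12.4% of the 985 with the core were called higher and 10.9% lower, against 11.3% and 10.9% of the 7085 without it. The number of members is small, and no test was made on them. The windows of Cd63, Atp6v0a1 and Ctsl lie wholly inside the annotated gene span, so the sequence before that span was not searched for these genes.

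Among the members called in the DOT1L knockout, overlapping genes bear on Glb1 and Ppt1. Glb1 overlaps Tmppe on the same strand, and how shared reads were assigned is not given in the sources used here; Tmppe stood at 18.3 to 32.6 CPM in NT and 35.5 to 45.0 CPM in the DOT1L knockout (log2 fold change 0.68, adjusted p = 0.12), the opposite direction to Glb1. Ppt1 overlaps Cap1, which had 128 counts against 9600 for Ppt1, on the opposite strand. Among members not called against NT, Ctsb overlaps Fdft1 (7997 counts against 28426 for Ctsb). Ctsz overlaps Nelfcd (3217 counts against 19666 for Ctsz). Both of these lie on the opposite strand, and with no strand setting given, the effect of shared reads cannot be told.

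**Figure D2:**
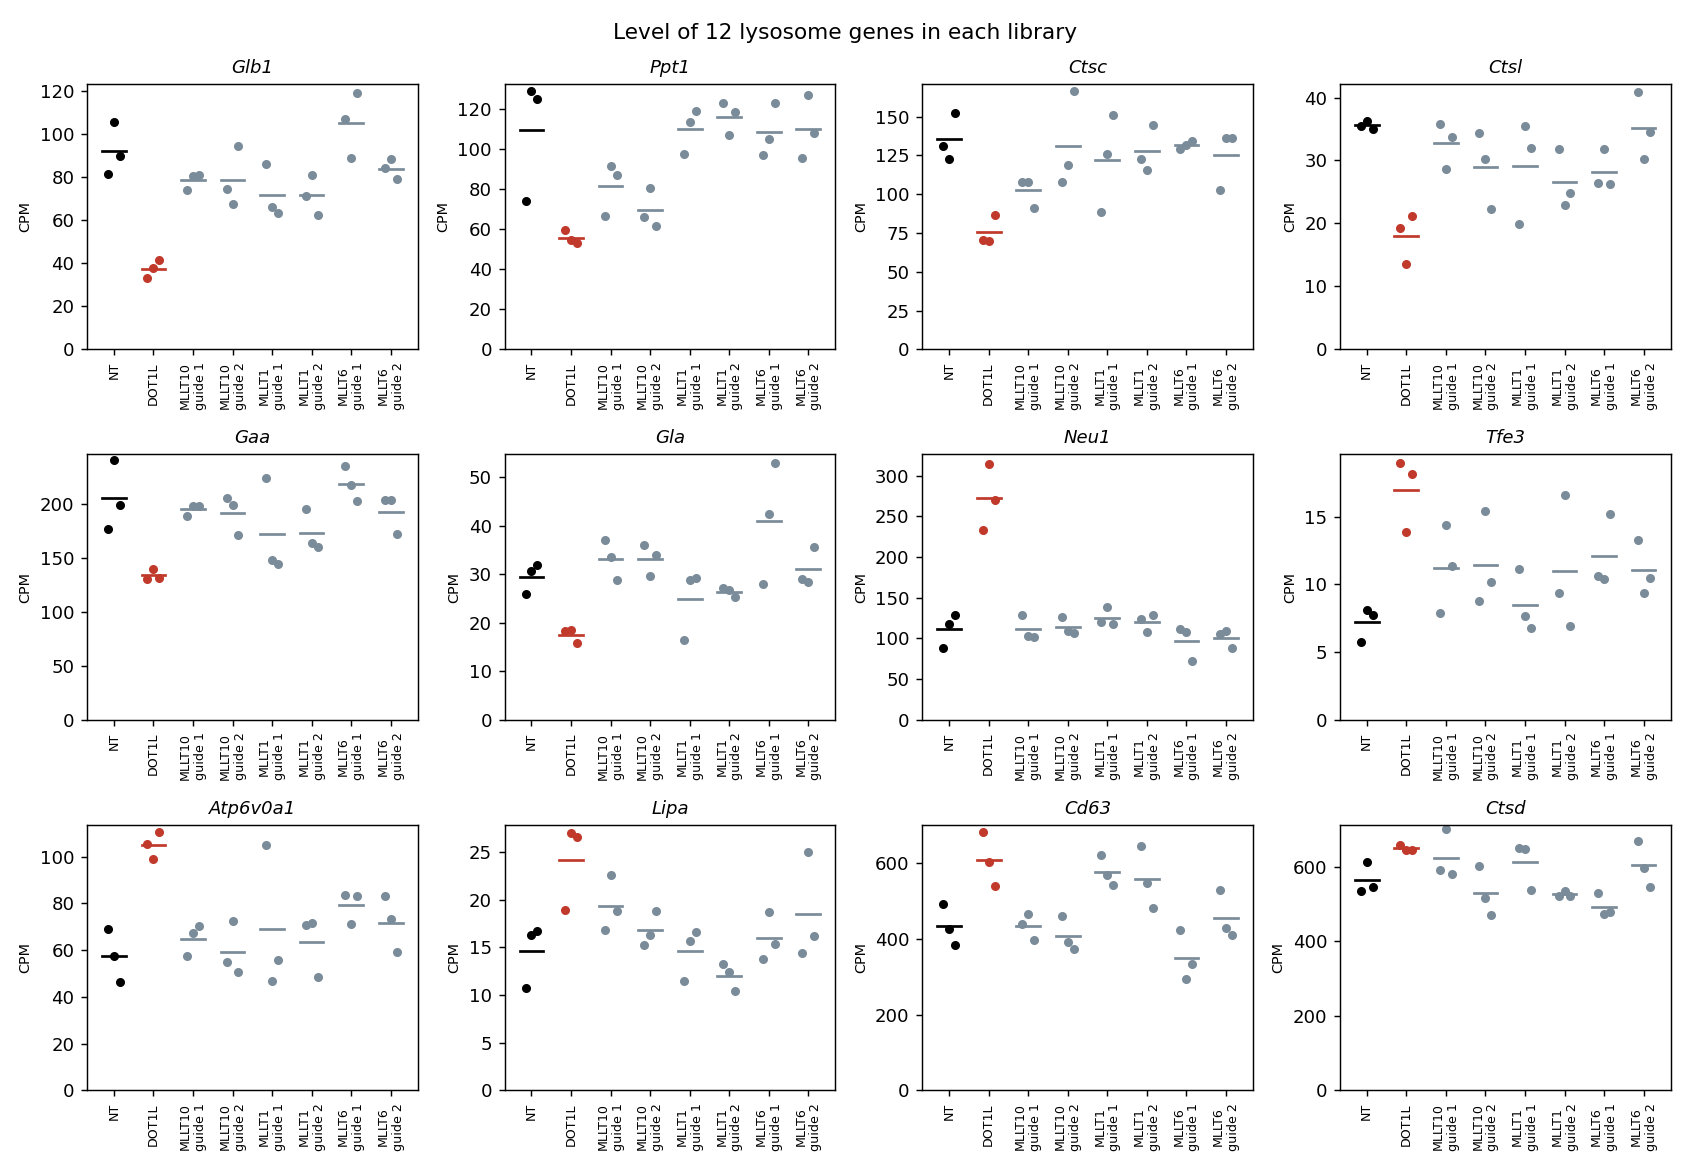
Level of 12 lysosome genes in CPM (y axes, each from 0) in every library of the 8 groups (x axes); points are libraries and lines are means of 3. The DOT1L knockout libraries (red) lie below all NT libraries (black) for Glb1, Ppt1, Ctsc, Ctsl, Gaa and Gla and above them for Neu1, Tfe3, Atp6v0a1, Lipa, Cd63 and Ctsd. Ctsd was not called, and the share of all genes without overlap is not given here.

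The called proton pump genes all moved one way in the DOT1L knockout, upward. Of the 5 member subunits, only Atp6v0a1 was called, where 21.7% of all genes were called in either direction. Atp6v0a1 (chr11:101009452-101063719), the gene for an a subunit of the membrane sector, had 69.3, 57.6 and 46.3 CPM in NT and 105, 99.2 and 110 CPM in the knockout. The groups did not overlap (log2 fold change 0.87 ± 0.24, adjusted p = 0.0086), and without NT replicate 3 the adjusted p was 0.059. Atp6v1a, Atp6v1h, Atp6v0d1 and the accessory subunit gene Atp6ap1 had log2 fold changes of 0.08, 0.29, 0.01 and -0.21 and were not called.

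Another 12 pump subunits, not members, were listed, and 10 were tested. In the DOT1L knockout 7 of them were called higher and none lower, against 11.1% and 10.6% of all genes, with a median log2 fold change of 0.67. Atp6v1c1, which encodes subunit C of the cytosolic sector, had 58.5, 57.9 and 49.4 CPM in NT and 134, 119 and 110 CPM in the knockout (log2 fold change 1.13 ± 0.14, adjusted p = 1.4e-06). Atp6v1d, for subunit D, rose from 143 ± 18.4 to 265 ± 31.9 CPM (SD, n = 3; log2 fold change 0.89, adjusted p = 9.3e-05). Atp6v1b2, for subunit B, had 145 ± 17.7 CPM in NT and 251 ± 22.5 CPM in the knockout (log2 fold change 0.79, adjusted p = 0.00048). Atp6v1e1, Atp6v0e, Atp6ap2 and Atp6v0b were the other 4, at 0.52 to 1.59 on the log2 scale. Atp6v0b varied widely, from 173 to 289 CPM in NT and from 528 to 1125 CPM in the knockout.

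The count of 7 did not change without MLLT1 guide 1 replicate 1 and MLLT6 guide 1 replicate 3, libraries that stood apart in earlier results of these data. It fell to 4 with total-count scaling, where 1 subunit was called lower, to 4 without NT replicate 3, to 5 without NT replicate 2, and likewise to 5 without DOT1L knockout replicate 1 or 3. None of the 10 was called in the MLLT10, MLLT1 or MLLT6 knockouts against NT. In direct comparisons with the DOT1L knockout, 6 of the 10 were lower in the MLLT10 knockout, 4 in the MLLT1 knockout and 6 in the MLLT6 knockout, where 12.5%, 11% and 15.1% of all genes were lower, and none was higher.

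**Figure D3:**
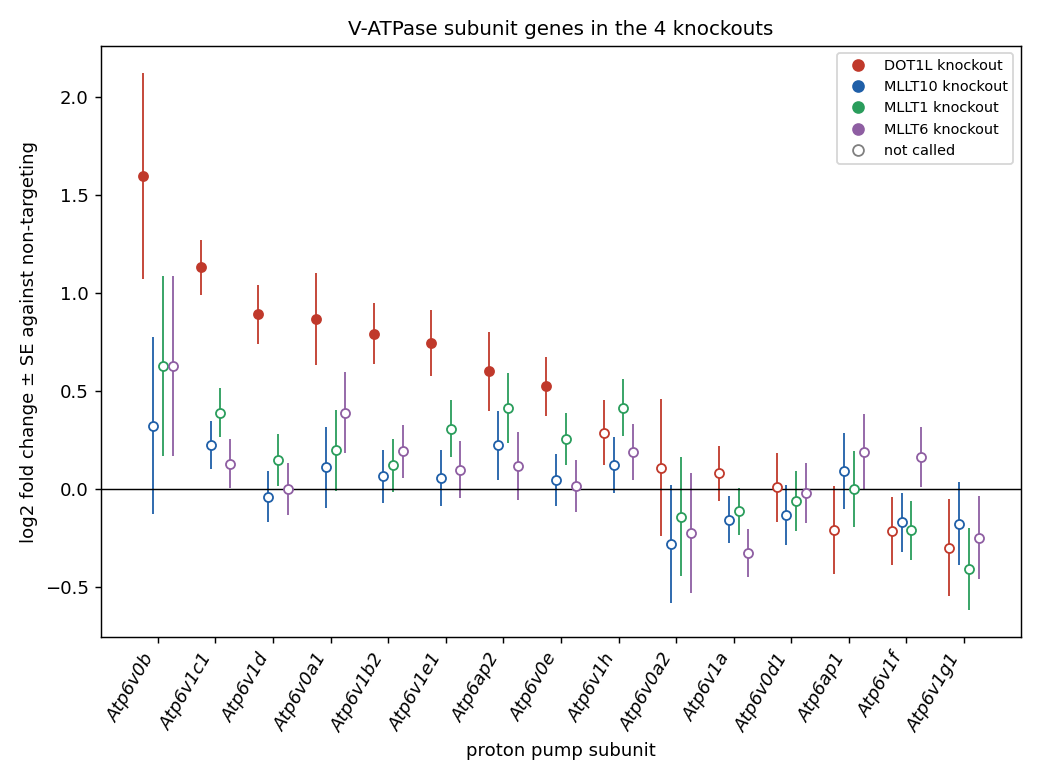
Log2 fold change against NT (y axis; bars are the SE of the edgeR fit) of the 15 tested V-ATPase subunit genes (x axis), 5 of them members, in the DOT1L, MLLT10, MLLT1 and MLLT6 knockouts; filled points were called and open points were not. All 8 filled points belong to the DOT1L knockout.

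Over all 7 further lists, pump included, 25 of 102 tested genes were called higher in the DOT1L knockout and 9 lower, against 11.1% and 10.6% of all genes. The share called lower was near that of all genes. Of 26 other hydrolases and partners, 4 rose and 6 fell. Ctse, an aspartic protease of endosomes, rose, with 14.4, 13.8 and 12.1 CPM in NT and 110, 105 and 95.7 CPM in the knockout (log2 fold change 2.94, adjusted p = 1.7e-08). The acid DNase gene Dnase2a rose by 0.86 on the log2 scale (adjusted p = 0.044), a call lost with total-count scaling and without any 1 of the NT replicates or of DOT1L knockout replicates 1 and 3 (adjusted p up to 0.16). Gm2a, the gene for the activator that presents GM2 ganglioside to β-hexosaminidase, fell by 1.07. Sgsh, which encodes the sulfamidase of heparan sulfate breakdown, fell by 1.28, and Plbd2 fell by 0.71 on the log2 scale.

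Both receptors that deliver the enzymes were called, in opposite directions, and neither call held in every setting. Igf2r, the large mannose 6-phosphate receptor, fell, with 157, 198 and 318 CPM in NT and 86.2, 72.2 and 72.0 CPM in the knockout (log2 fold change -1.55, adjusted p = 0.011, and 0.067 without NT replicate 3). M6pr, the small one, rose, with 229, 189 and 301 CPM in NT and 390, 427 and 482 CPM in the knockout (log2 fold change 0.85, adjusted p = 0.030). The M6pr call was lost in 5 of 13 settings: with total-count scaling and without DOT1L knockout replicate 2 or 3 or NT replicate 1 or 2 (adjusted p 0.063 to 0.15). Gga2, an adaptor that carries these receptors, rose by 1.19 and Nagpa, the enzyme that uncovers the mannose 6-phosphate tag, by 0.73 on the log2 scale, the latter not called without NT replicate 3 (adjusted p = 0.057). These were the 4 called of 10 sorting genes, against 21.7% of all genes called in either direction. Among 14 other membrane proteins, Cln3 rose by 1.48 and Laptm4a fell by 0.68.

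Of 17 tested genes of the TFEB family and its regulators, 4 rose and none fell, against 11.1% and 10.6% of all genes. Tfec, a relative of Tfe3, had 46.7 ± 10.8 CPM in NT and 179 ± 12.2 CPM in the knockout, a rise (log2 fold change 1.94, adjusted p = 0.0012). Fnip1 and Rragc, of the folliculin and Rag GTPase nutrient pathway that controls TFEB, rose by 0.81 and 0.72, and Fnip2 was the fourth. Mitf stood at 8.62 CPM in NT and 6.09 CPM in the knockout and was not called. In autophagy, Wipi1 rose and Gabarapl1 fell among 17 tested; the Wipi1 call was lost in 7 of 13 settings. Of 8 cystatins and stefins, the inhibitors of cysteine cathepsins, 5 rose in the DOT1L knockout, among them Stfa3 from 0.684 ± 0.491 to 2046 ± 106 CPM. Stefin A genes are near-identical copies, so the split of reads among them is uncertain.

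In the MLLT10 knockout no member was called higher or lower against NT by edgeR, where 0.236% of all genes were called higher and 0.227% lower. At an unadjusted p under 0.05 there were 2 members (9.43% of all genes), and DESeq2 called none either. The smallest adjusted p belonged to Ppt1, at 66.7, 91.6 and 86.8 CPM with guide 1 and 66.1, 80.8 and 61.7 CPM with guide 2, against 74.2, 129 and 125 CPM in NT (log2 fold change -0.54 ± 0.16, adjusted p = 0.17). NT replicate 1 lay inside the range of the knockout, and without it Ppt1 was called lower (log2 fold change -0.76, adjusted p = 0.017). Tfe3 had 7.85, 14.4 and 11.3 CPM with guide 1 and 8.77, 15.4 and 10.2 CPM with guide 2 (log2 fold change 0.64 ± 0.30, adjusted p = 0.51), and Hexa was at 132 ± 39.8 CPM (SD, n = 6; log2 fold change -0.35, adjusted p = 0.54). Among the further lists, Ctse was called higher at 30.4 ± 4.44 CPM (log2 fold change 1.17, adjusted p = 0.028), as was the stefin gene Stfa3. The Ctse call was lost without any 1 of the NT replicates, MLLT10 guide 1 replicate 1 and guide 2 replicates 1 and 3 (adjusted p 0.051 to 0.22). The neutrophil genes summed to 3481 to 5190 CPM in these libraries, and 4 of the 14 were called higher.

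In the MLLT1 knockout again no member was called by edgeR, against 0.993% of all genes higher and 1.62% lower, with 5 members at an unadjusted p under 0.05 (15.2% of all genes) and none called by DESeq2. Atp6v1h, a subunit of the cytosolic sector of the pump, came nearest. It had 143, 144 and 155 CPM with guide 1 and 143, 152 and 123 CPM with guide 2, against 127, 113 and 82.0 CPM in NT (log2 fold change 0.41 ± 0.14, adjusted p = 0.14). Cd63 stood at 568 ± 58.8 CPM against 435 ± 54.6 CPM (log2 fold change 0.39, adjusted p = 0.16) and was the only member called when replicate numbers were blocked (adjusted p = 0.035). Glb1 stood at 71.6 ± 9.79 against 92.1 ± 12.3 CPM (log2 fold change -0.37 ± 0.14, adjusted p = 0.20). Tfe3 lay between 6.78 and 16.6 CPM over the 6 MLLT1 libraries (log2 fold change 0.42, adjusted p = 0.57). Ctse was called higher at 30.7 ± 7.84 CPM (log2 fold change 1.19, adjusted p = 0.0086) and Sgsh lower at 7.46 ± 2.11 against 16.2 ± 0.643 CPM (log2 fold change -1.10, adjusted p = 0.035). Fitted on the compared groups alone, neither was called (adjusted p = 0.058 and 0.0845). Ctse was also lost without NT replicate 2 or 3, and Sgsh without any NT replicate, MLLT1 guide 1 replicate 3 or guide 2 replicate 1 or 2 (adjusted p up to 0.18). Of the inhibitors, the stefin genes Stfa2 and BC100530 were among 4 that rose, and Cst7, the cystatin F gene, fell from 345 ± 71.0 to 226 ± 28.2 CPM. Over the 16 settings 1 to 5 of the inhibitors were called higher. The BC100530 call was lost in 9 of them, which were the compared groups alone and leaving out any MLLT1 library but guide 2 replicate 3 (guide 1 replicate 1 also together with MLLT6 guide 1 replicate 3), or NT replicate 2 or 3. The Cst7 call was lost in 6, which were the compared groups alone and leaving out NT replicate 2 or 3, MLLT1 guide 1 replicate 2 or 3, or guide 2 replicate 1. Neutrophil genes summed to 3428 to 4268 CPM.

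In the MLLT6 knockout edgeR called no gene of any kind, 0 of 10578 (0%), and so no member; 3 members had an unadjusted p under 0.05 (6.76% of all genes) and DESeq2 called no member. Atp6v1a, the catalytic subunit of the pump, stood at 270 ± 21.1 CPM over 6 libraries against 339 ± 46.4 CPM in NT (log2 fold change -0.33, adjusted p = 0.71). Tpp1, a tripeptidyl peptidase gene, stood at 42.3 ± 8.92 against 59.3 ± 16.1 CPM (log2 fold change -0.50), and Tfe3 at 11.6 ± 2.20 against 7.23 ± 1.27 CPM (log2 fold change 0.67); both had an adjusted p of 0.71. Tfe3 was above its NT mean in all of the knockouts, but these comparisons share the NT libraries and only the DOT1L difference was called.

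**Figure D4:**
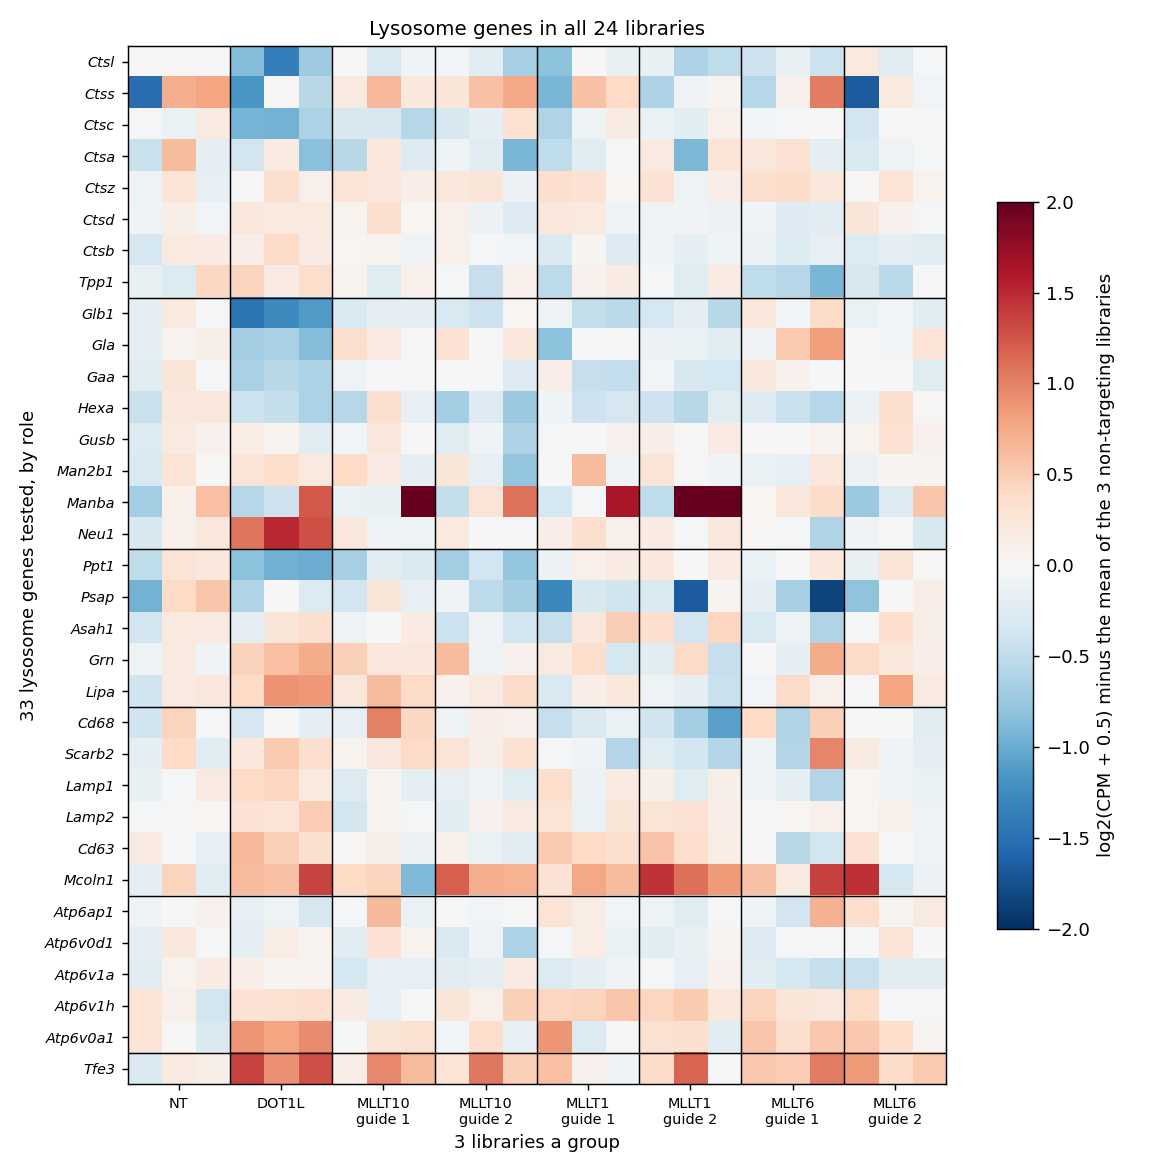
Log2(CPM + 0.5) of the 33 tested lysosome genes (rows, by role) in all 24 libraries (columns, 3 a group), minus the mean of the NT libraries; red is above and blue below that mean, and the colour scale ends at -2 and 2. The DOT1L columns stand out for Glb1, Neu1 and Tfe3, while Manba, Psap and Ctss vary between libraries of the same group.

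The guides of a gene were compared too. None of the 6 guide groups against NT gave a called member, with or without the replicate block, where the share of all genes called higher and lower was 0.104% and 0.0567% for MLLT10 guide 1, 0.227% and 0.104% for guide 2, 0.577% and 0.671% for MLLT1 guide 1, 0.52% and 0.775% for guide 2, and 0% for both MLLT6 guides. Guide 1 against guide 2 gave no called gene at all for MLLT10, MLLT1 or MLLT6 (0%); at an unadjusted p under 0.05 there were 3, 0 and 3 members, with 1.62%, 2.01% and 9.04% of all genes.

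Direct comparisons with the DOT1L knockout tested whether its changes differed from those of the other knockouts. Against it, the MLLT10 knockout had 5 members called higher and 5 lower (10.7% and 12.5% of all genes), the MLLT1 knockout 4 and 6 (8.45% and 11%), and the MLLT6 knockout 6 and 7 (13.9% and 15.1%). Glb1, Ctsc and Ctsl were higher in each of the 3 knockouts than in the DOT1L knockout, and Neu1 was lower in each. Glb1 differed by log2 fold changes of 1.06, 0.93 and 1.32 in the MLLT10, MLLT1 and MLLT6 knockouts, with a largest adjusted p of 6.1e-05. For Neu1 the differences were -1.27, -1.15 and -1.46, with a largest adjusted p of 1.7e-06. Atp6v0a1 was lower in the MLLT10 and MLLT1 knockouts than in the DOT1L knockout, Cd63, Lamp1 and Lamp2 in the MLLT10 and MLLT6 knockouts, and Ctsb in the MLLT1 and MLLT6 knockouts. All of these comparisons share the DOT1L knockout libraries. With total-count scaling the calls were 7 higher and 2 lower for MLLT10, 7 and 2 for MLLT1, and 8 and 3 for MLLT6. Most of the lower calls of the main fit were thus not kept. The shares of all genes above are from the main fit, and those under total-count scaling are not given here. The MLLT10 counts fell to 3 higher without DOT1L knockout replicate 2 and 3 lower without replicate 1, and the 6 lower for MLLT1 fell to 2 without any 1 of DOT1L knockout replicates 1 and 3, MLLT1 guide 1 replicate 3 and guide 2 replicate 3, and to 3 without guide 2 replicate 1.

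Ppt1 set the MLLT10 knockout apart from MLLT1. It stood at 75.6 ± 12.4 CPM in the MLLT10 knockout and 113 ± 9.42 CPM in the MLLT1 knockout (SD, n = 6 each), and the 12 libraries did not overlap between the groups (log2 fold change -0.58 ± 0.13, adjusted p = 0.011). Against the DOT1L knockout the MLLT10 difference was 0.44 ± 0.17 (adjusted p = 0.057), and against MLLT6 it was -0.54 ± 0.13 (adjusted p = 0.050). In that MLLT10 to MLLT1 comparison Cd63 was also lower (-0.43, adjusted p = 0.037) and Cd68 higher (0.80, adjusted p = 0.044), making 1 called higher and 2 lower, where 1.52% and 1.21% of all genes were called. Leaving out single libraries ended the Cd68 call in 10 of 12 cases. Of the 3 members called between MLLT10 and MLLT1, only 1 was called in all 19 settings. Between MLLT10 and MLLT6 no member was called (0.397% and 0.35% of all genes). Between MLLT1 and MLLT6, Cd63 alone was called, higher in MLLT1 at 568 ± 58.8 against 403 ± 82.1 CPM (log2 fold change 0.51 ± 0.11, adjusted p = 0.0086), where 1.77% of all genes were called higher and 2.67% lower.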

How the data were processed

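RNA-seq libraries (24, in 8 groups of 3) were read from 1 table of raw counts per gene as the authors deposited it; the submitters' processing notes name bcl2fastq, HISAT2, HTSeq, DESeq2 and mm10, and the sources used here give no annotation or strand setting. Of 43629 identifiers, 42548 were matched to symbols with GENCODE M21, GRCm38. The deposited counts totalled 2403044 to 7415397 per library, so low genes carry more counting error. edgeR 4.0.16 (R 4.3.3; filterByExpr, TMM, robust quasi-likelihood fit of all 24 libraries by group) tested 10578 genes, with p adjusted over all of them by Benjamini and Hochberg, and calls were made under 0.05. With 2 guides, their mean was compared with the control. CPM values are scaled by TMM. The fit was also run on simulated data with known changes, but how often small changes were recovered is not given here.

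Members and lists were chosen with earlier results of these data known. Named were Tfeb and Tfe3, in each comparison with NT up to 10 called members with the largest change at 5 CPM or more (or, under 3 called, the 3 with the smallest p), and up to 3 called genes per direction of each further list. No 2 replicates of a group agreed within sampling noise (chi-square per gene 4.76 to 34.3). Equal replicate numbers deviated together in the NT and both MLLT10 groups (correlations of deviations 0.107 to 0.552), a pairing seen in the data and not stated by the labels; a replicate block left that comparison at 0 called members. Alternatives were DESeq2 1.42.0 and its size factors, total counts, no filter, the compared groups alone, the block, and leaving out libraries.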

Additional observations from a re-analysis of the deposited data

How the results depend on the processing

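Of the 11 members called in the DOT1L knockout, 7 were called in all 13 settings; the exceptions were Gla, Lipa, Cd63 and Atp6v0a1. Depth limited Tfeb, Ctsh and Lgmn. No called gene named turned direction in any setting, but the median of the members did. Total-count scaling, chosen for counts after seeing the data, moved the median log2 fold change of all genes in the DOT1L knockout to -0.24 and turned that of the members from 0.14 to -0.11, and gave 3 members higher and 7 lower. Against the DOT1L knockout it gave 7 higher and 2 lower for MLLT10, 7 and 2 for MLLT1, and 8 and 3 for MLLT6. The compared groups alone gave 3 lower for MLLT1 against DOT1L, and 0 higher and 1 lower for MLLT10 against MLLT1. With no filter there were 1 higher and 1 lower for MLLT1 against NT, 4 lower for MLLT6 against DOT1L, 1 lower for MLLT10 against MLLT1, 1 lower for MLLT10 against MLLT6, and 2 higher for MLLT1 against MLLT6. DESeq2 size factors and the DESeq2 test each gave 1 lower for MLLT10 against MLLT6, and the DESeq2 test 1 lower for MLLT1 against MLLT6. Without both MLLT1 guide 1 replicate 1 and MLLT6 guide 1 replicate 3, also chosen after seeing the data, MLLT10 against MLLT1 gave 0 higher and 1 lower, and MLLT1 against MLLT6 gave 1 lower.

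The replicate block gave 1 member higher for MLLT1 against NT (Cd63), 1 lower for MLLT10 against MLLT6 and 1 lower for MLLT1 against MLLT6; other counts stayed within 1.5 times. All 3 correlations exceeded 0.1 in 8 of 28 pairs of groups. Of the comparisons between whole knockouts and NT, MLLT10 was the only one in which every pair of groups did; NT with MLLT1 guide 2 and with MLLT6 guide 2 did so as single pairs, and there the block, added after seeing the data, left 0 called members.

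Leaving out 1 library at a time gave 3 to 4 members higher in the DOT1L knockout. It gave 0 to 1 lower for MLLT10 against NT (1 without NT replicate 1). Against the DOT1L knockout it gave 3 to 6 higher and 3 to 5 lower for MLLT10 and 2 to 5 lower for MLLT1. MLLT10 against MLLT1 gave 0 to 1 higher and 1 to 2 lower, and against MLLT6 0 to 1 lower. MLLT1 against MLLT6 gave 1 to 2 higher and 0 to 2 lower, the 2 in both cases without MLLT1 guide 1 replicate 1. Among single genes named, 49 of 342 values without 1 library and 13 of 343 under other settings lost their call, and 2 gained one. Both totals include named genes that were not called in the main fit and had no call to lose. The share lost among called genes is therefore larger. Except where the setting itself tests fewer samples, the cause was not tested.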
